A study of Rattus norvegicus with 6 samples.

Results

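The genes described here encode the major chaperones and folding enzymes of the endoplasmic reticulum (ER) and known targets of the transcription factor XBP1, with Xbp1 itself. They are 10 genes: Hspa5, Hsp90b1, Calr, Canx, Pdia3, Pdia4, Dnajb9, Sdf2l1, Herpud1 and Xbp1. Their probe sets were those that the platform annotation assigns to a single one of these symbols or to an older alias. That gave 13 probe sets of 31042 on the array other than controls, and 10 of the 14217 genes with a probe set of their own. Canx had 3 probe sets, Pdia3 had 2 and the other genes had 1 each, and all 13 passed the filter on low signals. RNA was measured on 6 Affymetrix rat genome arrays in 3 groups of 2, which the labels call biological replicates. All arrays came from rat 3Y1 embryonic fibroblasts with a stable transfection. Vector in vitro is the line with an empty vector in culture, MUC1-CD in vitro is the line made to express the cytoplasmic domain of MUC1, a membrane mucin, in culture, and MUC1-CD in vivo is that line grown as tumors under the skin of the hindlimbs of female athymic mice. Athymic mice lack T cells of thymic origin but keep their other immune cells, vessels and stroma, so tumor RNA can hold host RNA. Both lines were cultured in the same serum-containing medium, and cultured cells were lysed in TRIzol. Tumors were snap-frozen, soaked in a preservative for frozen tissue, homogenized and put through spin columns as well as TRIzol, so the effect of tumor growth and that of the RNA isolation cannot be told apart. Whether a line is 1 clone, whether replicates came from separate cultures or mice, and the age of the mice are not stated in the labels, so p values measure the spread between these arrays only. The design asks which genes differ once MUC1-CD is expressed and once its cells form tumors.

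Proteins that enter the secretory pathway fold in the ER, where chaperones hold unfolded chains, lectins retain immature glycoproteins and disulfide isomerases arrange cysteine bonds. When unfolded chains build up, the sensors IRE1, ATF6 and PERK start the unfolded protein response. IRE1 splices the Xbp1 mRNA into a form that encodes an active transcription factor, cleaved ATF6 induces chaperone genes, and PERK slows translation while the transcription factors ATF4 and CHOP (the product of Ddit3) are made. Fibroblasts secrete collagen and other matrix proteins and depend on this machinery.

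ATF6 and XBP1 act through short elements in the promoters of these genes. Promoter sequences of 9 of the 10 genes were matched by symbol in RefSeq windows of the GRCr8 assembly, each of 300 bases with 250 before and 50 after the annotated start; Pdia3 had no entry. The ER stress element, which is CCAAT, 9 bases of any kind and CCACG, was searched on both strands. It was present in 5 of these 9 windows and in 0.0765% of all 27457 windows searched. Its CCAAT part, the letters bound by the factor NF-Y, was present in 9 of 9 and in 37.7% of all windows. The 6 copies of the element are shown because they are what Hspa5, Hsp90b1, Calr, Canx and Xbp1 share, with the fixed letters in capitals and each copy written 5' to 3' on the strand named.
Hspa5 (chr3:38452973-38452991, plus strand, bases -43 to -25 from the start): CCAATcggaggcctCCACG
Hsp90b1 (chr7:23012451-23012469, minus strand, bases -176 to -158 from the start): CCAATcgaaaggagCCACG
Hsp90b1 (chr7:23012347-23012365, plus strand, bases -72 to -54 from the start): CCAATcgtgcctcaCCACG
Calr (chr19:40213135-40213153, minus strand, bases -232 to -214 from the start): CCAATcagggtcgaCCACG
Canx (chr10:35158069-35158087, minus strand, bases -230 to -212 from the start): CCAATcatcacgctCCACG
Xbp1 (chr14:84604558-84604576, plus strand, bases -65 to -47 from the start): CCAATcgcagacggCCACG
The 300-base windows of Hspa5 (chr3:38452766-38453065, plus strand) and Herpud1 (chr19:10614658-10614957, minus strand) are shown in full, since Hspa5 is the usual reporter gene of the response and Herpud1 is the member whose difference from Vector was called under every setting tried. Capitals mark the ER stress element in Hspa5. In Herpud1 they mark the element TTGCATCA, which is read by ATF4 with C/EBP factors, and then the shorter ER stress element II, which is ATTGG, 1 base of any kind and CCACG.
Hspa5 promoter: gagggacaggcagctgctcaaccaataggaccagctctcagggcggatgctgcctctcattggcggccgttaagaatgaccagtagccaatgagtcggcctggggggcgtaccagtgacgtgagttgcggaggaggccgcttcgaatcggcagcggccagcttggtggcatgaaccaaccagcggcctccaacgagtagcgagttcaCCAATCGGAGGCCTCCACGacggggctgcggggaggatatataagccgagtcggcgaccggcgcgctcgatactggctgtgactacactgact
Herpud1 promoter: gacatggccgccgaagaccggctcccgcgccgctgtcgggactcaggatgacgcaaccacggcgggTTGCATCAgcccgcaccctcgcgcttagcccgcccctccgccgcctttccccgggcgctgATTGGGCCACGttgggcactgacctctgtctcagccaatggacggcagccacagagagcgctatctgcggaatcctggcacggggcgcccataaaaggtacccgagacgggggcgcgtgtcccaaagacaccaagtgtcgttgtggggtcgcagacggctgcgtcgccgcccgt
ER stress element II was found in Herpud1 alone of the 9 genes and in 0.0546% of all windows. TTGCATCA was likewise found in Herpud1 alone of the 9, at bases -184 to -177, and in 0.743% of all windows. It overlapped none of the other elements searched, whereas both ER stress elements contain a CCAAT box on 1 strand or the other. The core of the XBP1 element, TGACGTGG, was in 0 of the 9 windows and in 0.637% of all. A match describes letters in a window, not binding.

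Markers of the labelled cell type were detected: 12 of 12 fibroblast markers passed the filter. Vim, the intermediate filament of fibroblasts, was at signals of 20239 to 27322 and the collagen gene Col1a1 at 4872.8 to 14621 over the 6 arrays. Pdgfrb was dimmer, at 68.3 to 142 in cultured cells. By the test described below, 1 of the 12 was higher and 8 lower in MUC1-CD culture than in Vector cells. In tumors against Vector 2 were higher and 5 lower. Of all genes tested, 21.2% were higher and 24.9% lower in culture, and 24.8% and 26.6% in tumors against Vector. The Vector arrays stood apart in RNA quality. The ratio of 3' to 5' signal of the Gapdh controls, which rises when RNA is broken or copied short, was 11.5 and 17.8 on Vector replicates 1 and 2 and 1.11 to 1.18 on the other 4 arrays. For beta-actin it was 4.15 and 41.7 on the Vector arrays and 2.97 to 3.37 on the others. In comparisons with Vector, this difference in RNA and the genotype cannot be told apart. Signals are the deposited MAS5 values on a linear scale, which are not comparable between genes. A change below is the difference of group means of log2(signal + 16), with limma's standard error (SE), and for dim genes it is smaller than the change of the signal itself. A gene was called higher or lower at a limma adjusted p under 0.05 over all 18625 probe sets kept, and its probe set with the highest mean signal stands for it.

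**Figure D1:**
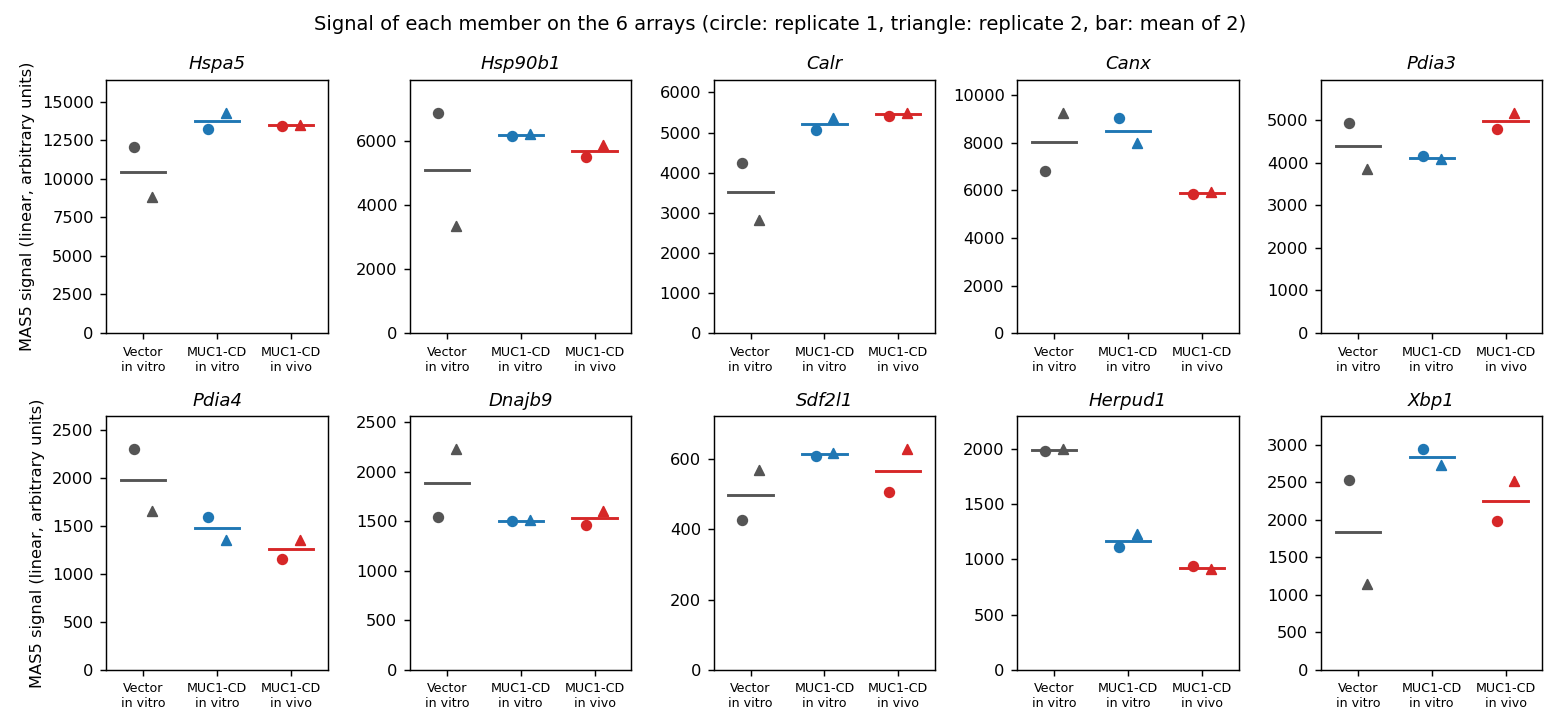
MAS5 signal (linear, arbitrary units, each axis from 0) of the 10 genes on the 6 arrays, by group; circles are replicate 1, triangles replicate 2 and bars the mean of 2 arrays. Herpud1 is the gene whose Vector arrays lie together (1979.5 and 1994) and above all 4 other arrays, whereas Hsp90b1 and Xbp1 span most of their range within the Vector group.

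With all 6 arrays, most of these genes were not called between Vector and MUC1-CD cells in culture. Of the 10, Calr rose, Herpud1 fell and 8 were not called, while 46.1% of the 10037 genes tested were called in this comparison, 21.2% higher and 24.9% lower. Both culture arrays lay above both Vector arrays for 4 genes (Hspa5, Calr, Sdf2l1 and Xbp1) and below them for 3 (Pdia4, Dnajb9 and Herpud1). Over all genes the corresponding shares were 33.9% and 39.1%. The median change of the 10 genes was 0.20 against -0.04 over all genes tested. The count turned on the Vector arrays: without Vector replicate 1, 6 of the 10 genes were called and 62.9% of all genes, and without Vector replicate 2, 7 of the 10 and 61.1% of all. Division of each array by its median signal moved the median of all genes to -0.36 and the share of called probe sets that were higher from 54.7% to 33.2%, and under it 3 of the 10 genes and 39.7% of all genes were called lower, with 0 of the 10 higher.

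Between tumors and MUC1-CD cells in culture, limma called 0 of the 10 genes at an adjusted p under 0.05, while 18.8% of all genes were called, 9.82% higher and 8.97% lower. At an unadjusted p under 0.05, 2 of the 10 genes (Canx and Herpud1) and 16.5% of all genes were lower. In these bulk samples, fewer cells that express a gene and less RNA per cell cannot be told apart. Both tumor arrays lay above both culture arrays for 2 genes (Calr and Pdia3) and below them for 4 (Hsp90b1, Canx, Herpud1 and Xbp1), against 40% and 35% of all genes. The median change was -0.12 against 0.03. In a fit on the arrays of these 2 groups alone, without the wider spread of the Vector arrays, 4 of the 10 genes and 47.7% of all genes were called. Canx, Herpud1 and Xbp1 were lower and the brighter of 2 disagreeing probe sets of Pdia3 was higher. With median scaling the median of all genes was -0.23, the share of called probe sets that were higher went from 53.9% to 22.3%, and 2 of the 10 genes and 20.8% of all genes were called lower.

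Tumors against Vector cells in culture gave 4 calls: Calr rose, and Canx, Pdia4 and Herpud1 fell. Over all genes 51.4% were called, 24.8% higher and 26.6% lower. Groups did not overlap for 2 genes that were higher (Hspa5 and Calr) and 3 that were lower (Canx, Pdia4 and Herpud1), against 37% and 38.6% of all genes. The median change was 0.19 against -0.02. This comparison shares its Vector arrays with the comparison in culture and its tumor arrays with the comparison of growth settings, so the 3 are not independent. With median scaling the median of all genes was -0.61 and the share of called probe sets that were higher went from 56.5% to 25.1%. Under it 5 of the 10 genes and 54.3% of all genes were called lower. Without Vector replicate 1, 9 of the 10 genes and 68% of all genes were called, and without Vector replicate 2, 6 of the 10 and 64.3% of all.

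**Figure D2:**
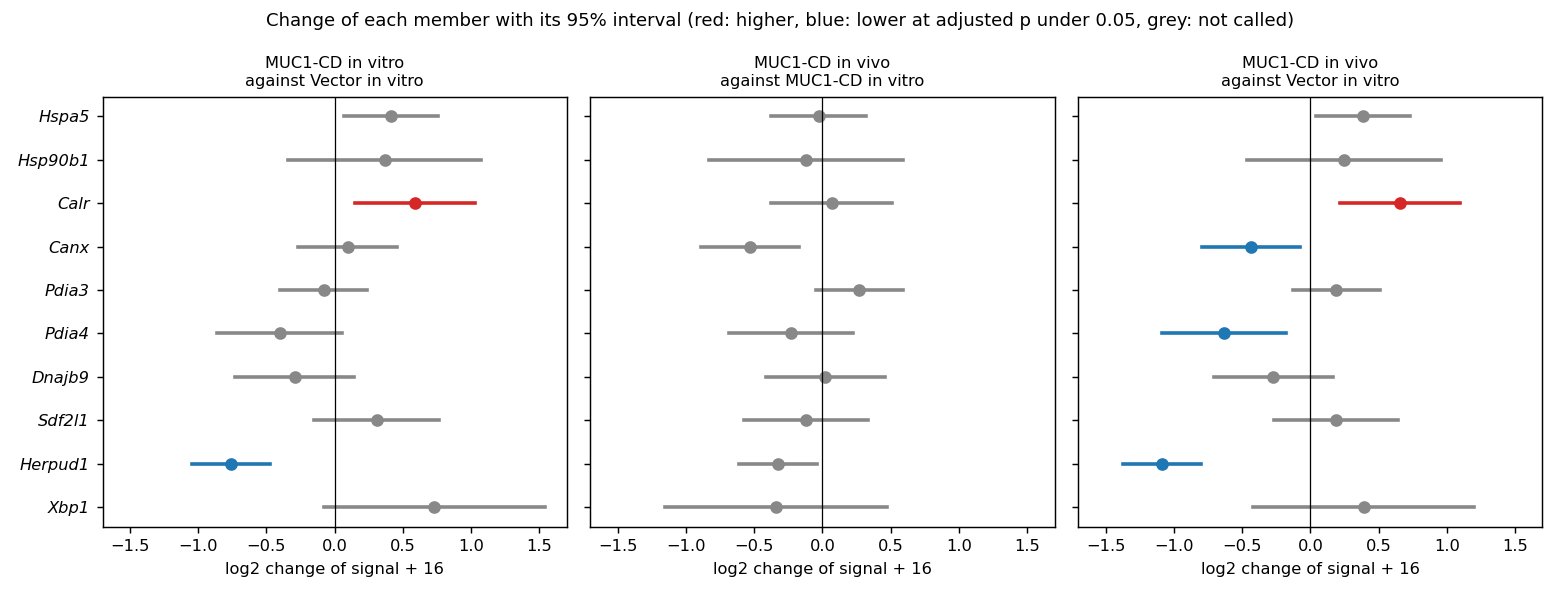
Log2 change of signal + 16 of the 10 genes in the 3 comparisons, with 95% intervals from limma; red points were called higher and blue points lower at an adjusted p under 0.05, and grey points were not called. In the middle panel, tumors against MUC1-CD culture, no gene was called; Herpud1 has the largest change in the right panel, -1.09.

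Neither general chaperone was called in any comparison. Hspa5 encodes BiP, the HSP70 of the ER, which binds unfolded chains and keeps the stress sensors inactive. Its signals were 12092 and 8799.8 on Vector replicates 1 and 2, 13215 and 14288 in MUC1-CD culture and 13421 and 13524 in tumors. Vector replicate 2 was the lowest array and Vector replicate 1 the next lowest, and culture and tumor arrays overlapped. The change in culture was 0.41 ± 0.14 (limma adjusted p = 0.0549), with a 95% interval of 0.07 to 0.76, and that between tumors and Vector was 0.38 ± 0.14 (limma adjusted p = 0.0628). Between tumors and MUC1-CD culture it was -0.03 ± 0.14, with an interval of -0.37 to 0.32. The levels ran from MUC1-CD culture through tumors to Vector, and no neighbours in that order differed by the test. Against Vector replicate 1 alone the change in culture was 0.18, and against replicate 2 alone it was 0.64, with the lone array taken to have the spread of the rest (limma adjusted p = 0.0397 and 1.55e-05). Quantile normalization between arrays gave 0.68 (limma adjusted p = 0.007), whereas median scaling gave 0.09.

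Hsp90b1 encodes GRP94, the HSP90 of the ER, with a restricted set of clients that includes integrins and Toll-like receptors. Its signals were 6875 and 3330.3 on the Vector arrays, 6134 and 6222 in MUC1-CD culture and 5485 and 5884 in tumors. The Vector arrays enclosed all 4 others. The changes were 0.37 ± 0.30 in culture (95% interval -0.34 to 1.08), -0.12 ± 0.30 from culture to tumors and 0.25 ± 0.30 from Vector to tumors, with limma adjusted p values of 0.352, 0.826 and 0.515. Its direction against Vector depended on the array: in culture the change was -0.15 against Vector replicate 1 alone and 0.89 against replicate 2 alone.

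The lectin chaperones calreticulin and calnexin hold glycoproteins that carry a trimmed glucose residue, calreticulin in the ER lumen and calnexin in its membrane. Calr was at 4248 and 2808 on the Vector arrays, 5058 and 5371 in MUC1-CD culture and 5424 and 5494 in tumors. All 4 MUC1-CD arrays lay above both Vector arrays, and the culture and tumor arrays lay close together. It rose by 0.59 ± 0.18 in culture (95% interval 0.15 to 1.03, limma adjusted p = 0.0374) and was 0.66 ± 0.18 higher in tumors than in Vector cells (limma adjusted p = 0.0233). Tumors and MUC1-CD culture differed by 0.07 ± 0.18 (limma adjusted p = 0.846). The difference between the Vector arrays, 0.59, was as large as the change in culture, and against Vector replicate 1 alone the change was 0.29. The call in culture was kept in 8 of 16 alternatives, over which the change ranged from 0.27 to 0.89, and the call of tumors against Vector was kept in 9 of 16.

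The most intense of the 3 Canx probe sets gave 6822 and 9271 on the Vector arrays, 9048 and 7978 in MUC1-CD culture and 5836 and 5931 in tumors. Both tumor arrays were the lowest of the 6. Canx was lower in tumors than in Vector cells (-0.43 ± 0.15, limma adjusted p = 0.0486), a call kept in 4 of 16 alternatives. Against MUC1-CD culture the change was -0.53 ± 0.15 with a 95% interval of -0.89 to -0.17 (limma adjusted p = 0.0598), and without Vector arrays in the fit it was called (limma adjusted p = 0.000155). In culture it was 0.10 ± 0.15. The next probe set, at 5797 and 5698 in MUC1-CD culture and 4173 and 4404 in tumors, was called lower in tumors than in culture (-0.42 ± 0.11, limma adjusted p = 0.0427). Its Vector arrays were at 5500.1 and 4666, and against them the change in tumors was -0.24 ± 0.11 and was not called. The dimmest probe set had 1233 and 356 on the Vector arrays, 1188 and 1229 in culture and 891 and 973 in tumors. Vector replicate 2 stood far below replicate 1 on that probe set, and its change in culture had an SE of 0.49. All 3 probe sets had their tumor arrays below their culture arrays.

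Pdia3 encodes ERp57, the disulfide isomerase that works with both lectins. Its brighter probe set was at 4941 and 3851 on the Vector arrays, 4170.5 and 4079 in MUC1-CD culture and 4788 and 5177 in tumors, so the tumor arrays lay above the culture arrays. The change from culture to tumors was 0.27 ± 0.13 (95% interval -0.05 to 0.59, limma adjusted p = 0.22), and without Vector arrays in the fit it was called (limma adjusted p = 0.00708). The dimmer probe set went the other way, with 217 and 169.6 in culture and 143 and 135 in tumors (-0.42 ± 0.22, limma adjusted p = 0.247), so no direction is given for Pdia3. Against Vector the brighter probe set changed by -0.08 in culture and 0.19 in tumors, neither called.

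Pdia4 encodes ERp72, another disulfide isomerase. Its signals were 2295 and 1652 on the Vector arrays, 1594 and 1353 in MUC1-CD culture and 1154 and 1355 in tumors. Both Vector arrays were above the other 4. It was lower in tumors than in Vector cells (-0.63 ± 0.19, 95% interval -1.09 to -0.18, limma adjusted p = 0.03), a call kept in 10 of 16 alternatives. The changes in culture (-0.40 ± 0.19, limma adjusted p = 0.128) and from culture to tumors (-0.23 ± 0.19, limma adjusted p = 0.462) were not called. The order of levels was Vector, MUC1-CD culture, tumors, and neither pair of neighbours differed by the test.

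The co-chaperones showed no call in any comparison. Dnajb9 encodes ERdj4, a J-domain partner of BiP that favours degradation of misfolded chains and restrains IRE1. It was at 1539 and 2227 on the Vector arrays, 1499 and 1518 in MUC1-CD culture and 1462 and 1604 in tumors, with Vector replicate 2 apart from the other 5 arrays. The change in culture was -0.29 ± 0.18 (limma adjusted p = 0.235) and that from culture to tumors 0.02 ± 0.18, with a 95% interval of -0.42 to 0.46. Sdf2l1 encodes a small protein found in complexes of BiP with J-domain partners. It was at 427 and 569 on the Vector arrays, 609.6 and 619 in MUC1-CD culture and 506 and 628 in tumors. Its tumor arrays spanned both culture arrays. The change in culture was 0.31 ± 0.19 (limma adjusted p = 0.231) and that from culture to tumors -0.12 ± 0.19 (95% interval -0.58 to 0.34).

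Xbp1 was at 2526 and 1141 on the Vector arrays, 2936 and 2733 in MUC1-CD culture and 1988 and 2509.6 in tumors. Vector replicate 1 lay between the tumor and culture arrays and replicate 2 below all others. The change in culture was 0.73 ± 0.34 with a 95% interval of -0.08 to 1.54 (limma adjusted p = 0.123). It was 0.16 against Vector replicate 1 alone and 1.30 against replicate 2 alone. From culture to tumors it was -0.34 ± 0.34 (limma adjusted p = 0.543), and without Vector arrays in the fit the fall was called (limma adjusted p = 0.021). Nothing in the labels says whether this probe set separates the spliced from the unspliced mRNA, and the values are read as total Xbp1 RNA.

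Herpud1 was the member whose difference from Vector was called under every alternative. Its product is an ER membrane protein with a ubiquitin-like domain that helps assemble the complex for ER-associated degradation. Its signals were 1979.5 and 1994 on the Vector arrays, 1109 and 1226 in MUC1-CD culture and 938 and 913 in tumors, or means of 1987 ± 10.3, 1167 ± 82.4 and 925 ± 18 (SD, n = 2). None of the 3 groups overlapped, with Vector highest and tumors lowest. It fell by 0.76 in culture (SE 0.12, 95% interval -1.05 to -0.48, limma adjusted p = 0.00266). In tumors it was lower than in Vector cells by -1.09 ± 0.12 (limma adjusted p = 0.000497), a ratio of 0.470 on the scale of signal + 16. These calls were kept in 16 of 16 alternatives each, with changes of -1.08 to -0.69 in culture and -1.68 to -1.05 in tumors. Such stability was common among called genes of the pathway lists described below. Calls were kept in every alternative that measured the gene for 35 of 71 in culture and 41 of 77 in tumors against Vector. The step from culture to tumors was -0.33 ± 0.12 (95% interval -0.61 to -0.04, limma adjusted p = 0.114), so these neighbours in the order did not differ by the test. Without Vector arrays in the fit this step was called too (limma adjusted p = 0.0138).

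The Vector arrays differed from each other in most of these genes. Replicate 1 exceeded replicate 2 by 1.14 in Xbp1, 1.04 in Hsp90b1, 0.59 in Calr, 0.47 in Pdia4, 0.46 in Hspa5 and 0.36 in Pdia3 on the log2 scale. The difference was -0.53 in Dnajb9, -0.44 in Canx, -0.40 in Sdf2l1 and -0.01 in Herpud1. For 9 of the 10 genes, all but Herpud1, the absolute difference between the Vector arrays was larger than the change in culture, as it was for 35.1% of all genes. For tumors against Vector this held for 7 of 10, the exceptions being Calr, Pdia4 and Herpud1, and for 32.2% of all genes. The median absolute difference between replicates was 0.46 over the 10 genes in the Vector group, 0.09 in MUC1-CD culture and 0.11 in tumors. Over all genes it was 0.29, 0.10 and 0.12. The control ratios also differed between these arrays, the beta-actin ratio being 4.15 on Vector replicate 1 and 41.7 on replicate 2 and the hexokinase ratio 12 and 8.41. Their part in the differences was not tested.

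**Figure D3:**
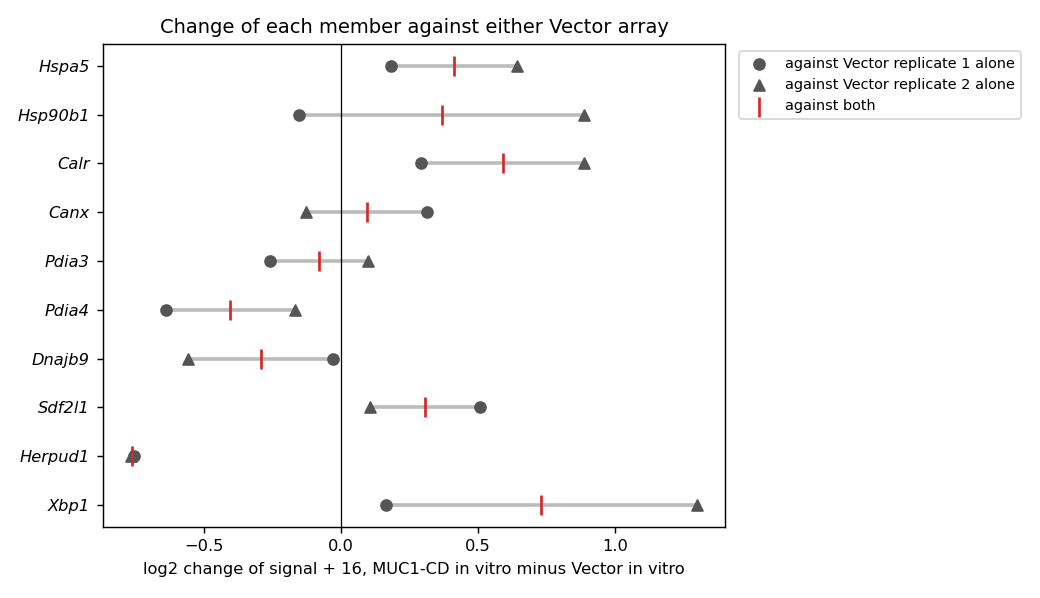
Log2 change of signal + 16 of each gene, MUC1-CD in vitro minus Vector in vitro, against Vector replicate 1 alone (circles), replicate 2 alone (triangles) and both (red ticks). The points of Herpud1 coincide near -0.76, whereas those of Hsp90b1 lie on both sides of 0, at -0.15 and 0.89.

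In the list of PERK, ATF4 and CHOP targets and regulators, 0 of 14 measured genes rose and 6 fell in MUC1-CD culture against Vector, with a median of -0.30, where 21.2% and 24.9% of all genes were called higher and lower. This absence of rises depended on the Vector arrays. With either Vector array left out, which leaves 1 array in that group, the list had calls in both directions. More genes were then called in the list and over all genes alike. Atf4, the transcription factor of this arm, was at 13113 and 14973 on the Vector arrays, 4082 and 3938 in MUC1-CD culture and 6474 and 6668 in tumors. It fell by 1.80 in culture (SE 0.09, limma adjusted p = 4.96e-05) and was higher in tumors than in MUC1-CD culture by 0.71 ± 0.09 (limma adjusted p = 0.0045). The difference of tumors from Vector was -1.09 ± 0.09 (limma adjusted p = 0.000195), and these calls against Vector were kept in 16 of 16 alternatives. Ddit3, which encodes CHOP, was at 2089.5 and 2417 on the Vector arrays, 636 and 705 in MUC1-CD culture and 1027 and 968 in tumors. Ddit3 had the same order as Atf4, with Vector highest and MUC1-CD culture lowest and no overlap. Its changes were -1.72 ± 0.14 in culture and 0.56 ± 0.14 from culture to tumors (limma adjusted p = 0.000192 and 0.0367). The calls from culture to tumors were kept in 12 of 16 alternatives for Atf4 and 9 of 16 for Ddit3, with limma adjusted p values up to 0.0659 and 0.26. Both genes lie on chromosome 7 of GRCr8, where the median over 656 measured genes was -0.65 in culture and -0.54 in tumors against Vector. Hsp90b1 lies on chromosome 7 too. Herpud1 lies on chromosome 19, where the median over 297 genes was -0.01 in culture.

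Other genes of this arm lie on other chromosomes, Atf3 on 13, Nupr1 on 1 and Chac1 on 3, with chromosome medians of 0.16, 0.08 and 0.02 in culture. Atf3, a stress-induced factor, was at 563 and 483 on the Vector arrays, 178 and 228 in MUC1-CD culture and 332 and 322 in tumors, a fall of 1.30 in culture (SE 0.18, limma adjusted p = 0.00168). Nupr1, a stress-responsive chromatin-associated protein, fell from 8325 ± 1537 to 3988 ± 114 (SD, n = 2; -1.05 ± 0.13, limma adjusted p = 0.00118) and was at 4013 ± 98.1 in tumors. Chac1, which encodes an enzyme that degrades glutathione, was at 1148 and 1345 on the Vector arrays, 640.0 and 556 in MUC1-CD culture and 439 and 448 in tumors. It was lower in tumors than in Vector cells by -1.45 ± 0.15 (limma adjusted p = 0.000409). The genes with the largest p in culture were Eif2s1, the substrate of PERK (0.04 ± 0.20), and Sesn2, a stress-induced regulator of growth signalling (0.16 ± 0.19). In tumors against MUC1-CD culture, 2 of the 14 genes rose, Atf4 and Ddit3, and Vldlr, a lipoprotein receptor, fell from 1687 ± 79 to 379 ± 48.7 (-2.11 ± 0.14, limma adjusted p = 0.000323). Of all genes 9.82% rose and 8.97% fell there. Against Vector, tumors had 4 of 14 higher and 8 lower, beside 24.8% and 26.6% of all genes. The fit without the Vector arrays called 8 of 14 higher and 5 lower between tumors and MUC1-CD culture. It called 25.1% and 22.6% of all genes. Under median scaling 0 of 14 were higher and 8 lower in culture, with a median of -0.62 against -0.36 over all genes. The shares of all genes were then 13% and 39.7%. Herpud1 and Atf4 were both lower than Vector in both MUC1-CD groups, whereas from culture to tumors Atf4 rose and Herpud1 had a change of -0.33 and lower signals on both tumor arrays.

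**Figure D4:**
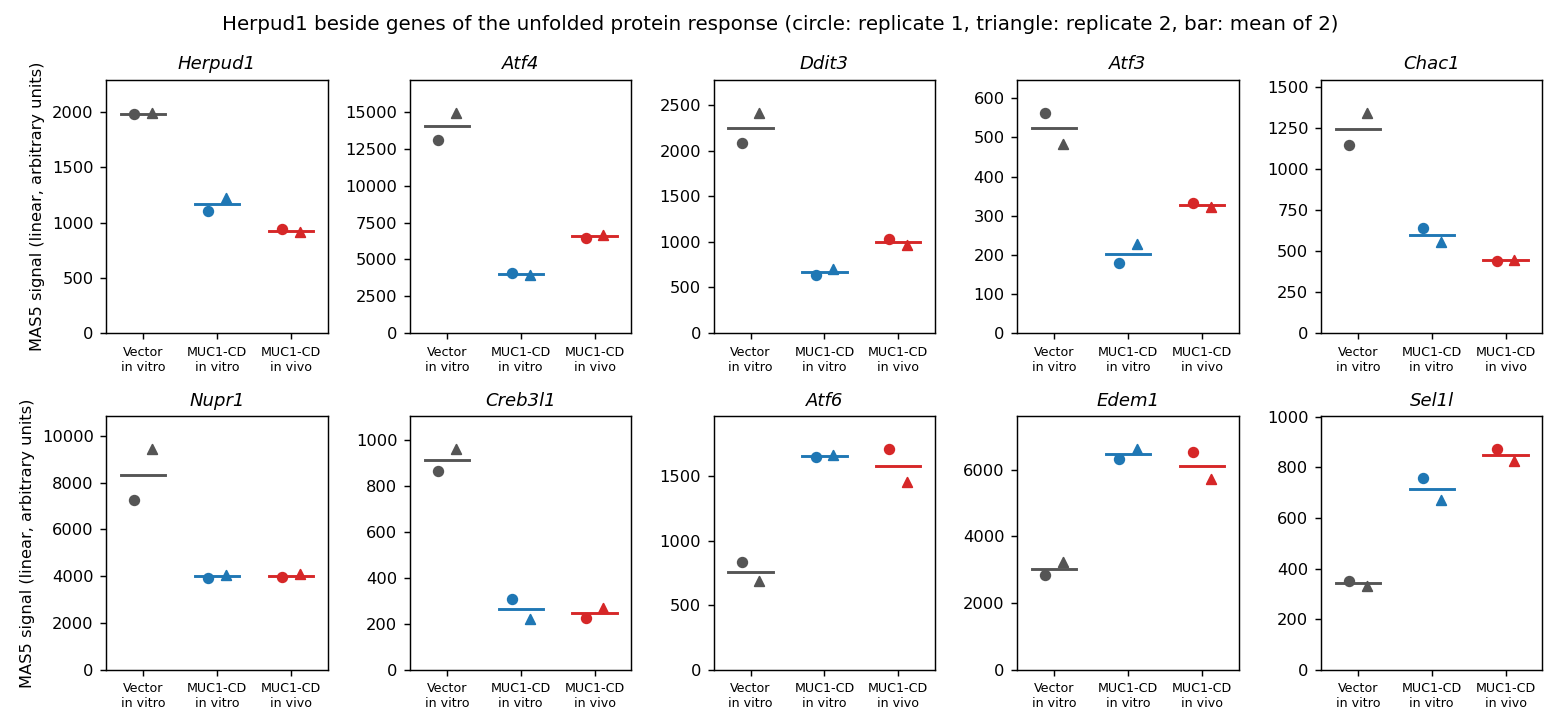
MAS5 signal (linear, arbitrary units, each axis from 0) of Herpud1 and 9 genes of the unfolded protein response on the 6 arrays; circles are replicate 1, triangles replicate 2 and bars the mean of 2 arrays. Atf4, Ddit3 and Atf3 are highest on the Vector arrays and lowest in MUC1-CD culture, Herpud1 and Chac1 are lowest in tumors, and Atf6, Edem1 and Sel1l are lowest on the Vector arrays.

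The element TTGCATCA, shown above in the Herpud1 window, was also present in 4 of 131 other genes of the pathway lists, namely Chac1, Nupr1, Ppic and Ppp1r15b. Each of the 4 was called lower in MUC1-CD culture than in Vector cells, with changes of -1.04, -1.05, -1.04 and -1.23, and lower in tumors than in Vector cells. Ppic encodes a cyclophilin and Ppp1r15b a subunit of the phosphatase that reverses the action of PERK, and both were named after their values were seen. Of all 44 measured genes with this element, 5 were called higher (11.4%) and 21 lower (47.7%) in culture, with a median of -0.36. Over the 8438 measured genes that have a window the shares were 21.0% and 24.7%, with a median of -0.03. The 44 include Herpud1 and the 4 genes just named, all counted as lower, so the count is not independent of them. This element was also chosen with earlier results of these data known. In tumors against MUC1-CD culture 6 of the 44 were higher (13.6%) and 4 lower (9.09%). The shares of all measured genes with a window were 9.26% and 8.84% there, so the share that was lower was close to that of all. Of the 15 measured genes with the ER stress element, 5 were higher and 3 lower in culture, with a median of 0.37. These 15 include the members Hspa5, Hsp90b1, Calr, Canx and Xbp1, and the median is the value of Hsp90b1. These counts describe the windows, and no test was made of them.

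Among sensors, transducers and the machinery around the members, calls went both ways. Of the sensors and transducers, 4 of 15 measured genes rose and 3 fell in culture, where 21.2% of all genes were called higher and 24.9% lower. The list counts were not tested against these shares. Atf6, a sensor that is cleaved in the Golgi, was at 837 and 685 on the Vector arrays, 1647 and 1664 in MUC1-CD culture and 1707 and 1456 in tumors, a rise of 1.11 ± 0.15 in culture (limma adjusted p = 0.00147). Creb3l1, a related membrane-bound factor that drives collagen secretion, fell from 913 ± 67.4 to 265 ± 60 (SD, n = 2; -1.74 ± 0.20, limma adjusted p = 0.000808). Nfyb, a subunit of NF-Y, rose by 0.86 ± 0.13, and Tmbim6, an ER membrane protein that limits IRE1, fell by 0.60 (SE 0.08). Both lie on chromosome 7, and the change of Tmbim6 was close to the median of -0.65 over that chromosome. Nfyc and Mbtps2, the latter a protease that cleaves ATF6, had changes of -0.02 and -0.01 and were not called. The sensor gene Ern1, which encodes IRE1, was not analysed here.

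Among other ER chaperones and co-chaperones, 5 of 24 measured genes rose and 10 fell in culture, with a median of -0.26. All genes tested had 21.2% higher and 24.9% lower, with a median of -0.04. Fkbp11 and Rcn3, a prolyl isomerase and a calcium-binding protein of the ER, fell by 1.93 and 1.69 (limma adjusted p = 0.000382 and 0.000188). Fkbp11 lies on chromosome 7, with its median of -0.65, and Rcn3 on chromosome 1, with a median of 0.08. Fkbp2, another prolyl isomerase, rose from 1496 ± 97.7 to 3045 ± 78.1, and Dnajc10, a J-domain disulfide reductase, rose from 1785 ± 104 to 3401 ± 100.3 (SD, n = 2; 0.92 ± 0.11, limma adjusted p = 0.000758). Serpinh1, the collagen chaperone, was at 6091 and 2817 on the Vector arrays and 3281 and 3249 in MUC1-CD culture, a change of -0.34 ± 0.32 that was not called. In tumors against MUC1-CD culture 1 of the 24 rose (Rcn3, 0.62 ± 0.13) and 3 fell (Dnajc10, Fkbp9 and Fkbp14). The shares of all genes were 9.82% and 8.97%. Dnajc10 fell by 0.75 (SE 0.11, limma adjusted p = 0.0057). Hyou1, the large ER HSP70 partner, lay below the filter on low signals and was not tested.

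Among genes of disulfide formation, 5 of 17 measured genes rose and 5 fell in culture, against 21.2% and 24.9% of all genes. Ero1a, the oxidase that recharges disulfide isomerases, rose from 452 ± 26.9 to 1302 ± 142 (SD, n = 2; 1.49 ± 0.14, limma adjusted p = 0.000361). Pdia6, a relative of Pdia3 and Pdia4, rose by 0.59 ± 0.10 (limma adjusted p = 0.0031). Pdia5, a further relative, was lower in tumors than in MUC1-CD culture by -0.74 ± 0.14 (limma adjusted p = 0.0156), 1 of 2 falls in that comparison with 0 rises. Of all genes 8.97% fell and 9.82% rose there. P4hb, the most studied disulfide isomerase, was at 11837 and 11629 in culture and 11611 and 11959 in tumors, a change of 0.01. In the glycoprotein folding cycle that serves calnexin and calreticulin, 1 of 5 measured genes rose and 1 fell in culture. Uggt1, the glucosyltransferase that returns unfolded glycoproteins to both lectins, was at 46.2 and 41.8 on the Vector arrays, 295 and 328 in MUC1-CD culture and 267 and 199 in tumors. Its Vector signals lie under the filter value of 61.6, and it is the 1 rise counted in this list, so it entered the test through the MUC1-CD arrays and no fold is given. Mogs, which removes the outermost glucose, fell by 0.89 (SE 0.13).

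Among genes of ER-associated degradation, where Herpud1 acts, 4 of 25 measured genes rose and 6 fell in culture, against 21.2% and 24.9% of all genes. Edem1, a lectin-like protein that hands glycoproteins to degradation and a known XBP1 target, was at 2829.6 and 3220.3 on the Vector arrays, 6308 and 6604 in MUC1-CD culture and 6514 and 5727 in tumors. Edem1 was thus lower on both Vector arrays than on the other 4, the reverse of Herpud1, and rose by 1.09 ± 0.11 in culture (limma adjusted p = 0.000475). Sel1l, the partner of the ubiquitin ligase SYVN1, was 1.27 ± 0.14 higher in tumors than in Vector cells (limma adjusted p = 0.000541). Os9, a lectin of the same complex, and Derl1, a channel component, fell by 1.82 and 0.70 in culture (limma adjusted p = 0.0015 and 0.00116). Both lie on chromosome 7, and the change of Derl1 was close to the median of -0.65 over that chromosome. All their probe sets had changes below 0, but only 1 of 2 for Os9 and 1 of 3 for Derl1 were called. The weakest changes were -1.09 for Os9 and -0.19 for Derl1. Syvn1 itself was not called (limma adjusted p = 0.995). In tumors against MUC1-CD culture 3 of the 25 rose (Hm13, Rnf139 and Ube2g2) and 0 fell, against 9.82% and 8.97% of all genes. These 3 calls were kept in 9, 9 and 7 of 16 alternatives. The 3 probe sets of Hm13 disagreed, with changes from -1.17 to 0.96, so no direction is given for Hm13.

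Translocation and oligosaccharyl transfer had 8 of 27 measured genes higher and 4 lower in culture, against 21.2% and 24.9% of all genes. Magt1, of the oligosaccharyltransferase, rose by 1.40 ± 0.16, and Spcs1, of the signal peptidase, fell by 0.73 (SE 0.08). In tumors against MUC1-CD culture 4 of the 27 fell and 0 rose, among them the ribophorins Rpn1 (-0.45 ± 0.08) and Rpn2 (-0.48 ± 0.10). ER exit and retrieval had 3 of 22 higher and 6 lower in culture. Kdelr3, a receptor that returns chaperones with a KDEL tail to the ER, was at 5046 and 4848 on the Vector arrays, 1157 and 1038 in MUC1-CD culture and 1994 and 1668 in tumors (-2.16 ± 0.13 in culture, limma adjusted p = 7.66e-05). Kdelr3 shared the order of Atf4 and also lies on chromosome 7. Over the 8 lists, 30 of 149 measured genes rose and 41 fell in culture, 8 rose and 11 fell from culture to tumors, and 25 rose and 52 fell in tumors against Vector. Of all genes, 21.2% and 24.9%, 9.82% and 8.97%, and 24.8% and 26.6% were called higher and lower in these comparisons. With median scaling the counts over the lists were 15 and 69, 2 and 49, and 12 and 103. Under it the shares of all genes were 13% and 39.7%, 5.95% and 20.8%, and 11.9% and 54.3%. Of the 19 calls from culture to tumors, 1 was kept in every alternative, that of Vldlr. Dnajc1 and Sec63 had probe sets called in opposite directions in tumors against Vector.

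**Figure D5:**
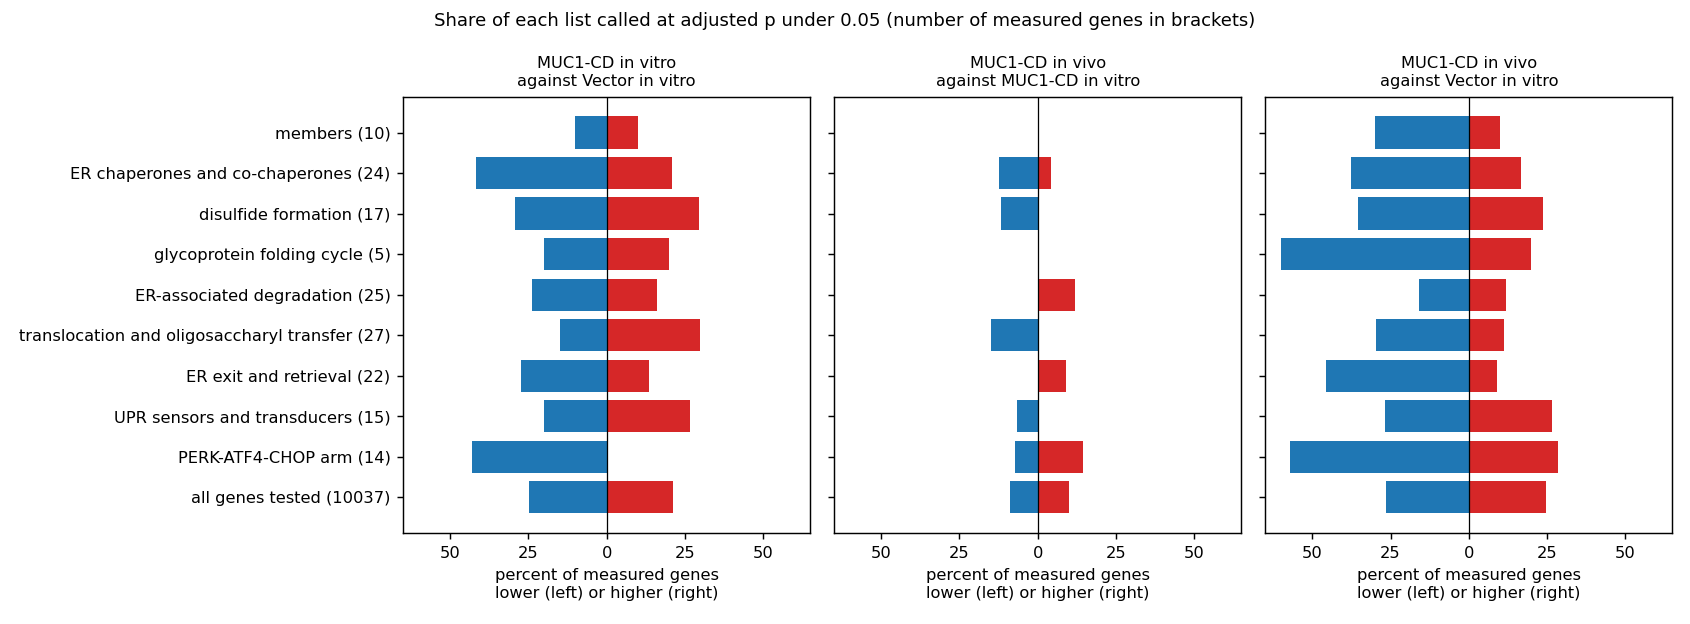
Percent of measured genes called higher (right, red) or lower (left, blue) at an adjusted p under 0.05 in the 10 members, the 8 pathway lists and all genes tested, for the 3 comparisons. The members have shorter bars than all genes in the left and middle panels. The missing red bar of the PERK-ATF4-CHOP arm in the left panel holds with all 6 arrays, but not when either Vector array is left out.

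The summed markers of other cell types were higher in the tumor group, though not every single marker was. The summed signal of 17 macrophage markers, 11 of which passed the filter, was 7909 to 7960 in tumors, 3326 to 3539 in MUC1-CD culture and 1111 to 1242 on the Vector arrays. Most of the sum in culture was Cd14, and without it the sum was 4620.2 to 4712 in tumors and 488 to 778 on the other 4 arrays. The complement gene C1qa was at 914 and 887 in tumors and 29.3 to 50.5 on the others. Lyz2 was lower in tumors (172.5 and 136.9) than on the Vector arrays (267.6 and 376.7). Cd163 was not higher in tumors (102 and 121.8) than in MUC1-CD culture (115.1 and 144.7). The 12 endothelial markers summed to 3064 to 3114 in tumors and to 566 to 634 on the other 4 arrays. Much of the tumor sum was Aqp1, at 1763 and 1550. Without Aqp1 the sum was 1351 to 1514 in tumors and 552 to 623 on the others. Egfl7 (148 and 205 in tumors) and Vwf (9.7 and 10.2, below the filter) were lower in tumors than on the other arrays. The 16 skeletal muscle markers summed to 13079 to 14009 in tumors, 3321 to 3439 in MUC1-CD culture and 10480.0 to 10994 on the Vector arrays. The sums outside tumors were mostly Myh1, and without it they were 633 to 701, against 9149 to 9887 in tumors. Myh1 was lower in tumors (4121.9 and 3929.3) than on the Vector arrays (9778.9 and 10296.6). So was Casq1, at 67.7 and 65.9 against 117.4 and 78.8. Plasma cells carry much ER and high levels of these chaperones. The summed signal of 8 markers of plasma and B cells was 5970 to 6791 in tumors, 971 to 1116 in MUC1-CD culture and 1742 to 2102 on the Vector arrays. Most of it was Sdc1, which epithelial and other cells also express, and without it the sum was 527 to 609.8 in tumors and 160.1 to 226 on the others. Jchain, the joining chain of immunoglobulin, was at 219 and 236 in tumors and at 27.1 to 62.6 on the other arrays. The defining B-cell gene Cd79b was at 3.1 to 38.4 over the 6 arrays and below the filter. Host cells are murine, and the labels do not say which rat probe sets bind mouse RNA. The part of host RNA in the tumor values of the 10 genes was not tested.

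Over the 6 arrays, the 5 genes outside the 10 whose centred log2 profile lay closest to that of Hspa5 were Cchcr1, Agtrap, Cib2, Map3k11 and Dop1b. Their root-mean-square differences from Hspa5 were 0.0275 to 0.0491 and their correlations with it 0.979 to 0.993, over 6 arrays that share labelling and scaling. Among the 10 genes, Calr was the closest to Hspa5 (0.120, r = 0.986), and Dnajb9 and Herpud1 ran against it (r = -0.939 and -0.747). Hspa5, Calr and all 5 nearest genes were lowest on Vector replicate 2, where Dnajb9 was highest. That array had the beta-actin ratio of 41.7, and its part in these likenesses was not tested. These are descriptions of 10036 profiles over 6 arrays, without a test.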

How the data were processed

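RNA was measured on 6 Affymetrix Rat Genome 230 2.0 arrays, 2 in each of 3 groups. The deposited values are MAS5 signal intensities on a linear scale, 1 per probe set, computed by the authors with Affymetrix software, per the submitters' processing notes. Each array had been scaled to a common trimmed mean, as the values themselves show. Of the probe sets other than controls, 20826 were annotated to a single gene, 436 to several and 9780 to none listed here; 20758 matched RefSeq genes of GRCr8.

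Probe sets with a mean signal under the 40th percentile (61.6) were left out. The others, 18625 of 31042, were tested as log2(signal + 16) with limma 3.58.1 in R 4.3.3, in 1 fit over the 3 groups with a mean-variance trend and Benjamini-Hochberg adjustment over all of them, after tests on simulated data. Replicate numbers did not pair the arrays: same-numbered arrays had correlated deviations of -0.02 to -0.04. The fit had 3 residual degrees of freedom, and the number of arrays limits the precision. Promoters were the first RefSeq window of each gene.

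The 10 genes, the pathway and marker lists and the motifs were chosen with earlier results of these data known. Genes named from the lists were up to 4 with the smallest p among those called, and up to 2 with the largest p, per list and comparison; the 5 profiles nearest to Hspa5 were also named. Genes given outside this rule were chosen after their values were seen. Alternatives changed the pseudocount, filter, scaling, spread, trend, replicate block, arrays used and choice of probe set.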

Additional observations from a re-analysis of the deposited data

How the results depend on the processing

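Of 480 values of the 10 genes' changes under the alternatives, 390 kept their direction and side of the threshold, 36 passed it only there, 33 no longer passed it and 21 changed sign. The calls of Herpud1 against Vector were kept in 16 of 16 alternatives. Of the pathway genes called, 35 of 71 in culture and 41 of 77 in tumors against Vector were also kept throughout. The 10 genes had 2, 0 and 4 calls in culture, from culture to tumors and in tumors against Vector. Of all genes 46.1%, 18.8% and 51.4% were called. In culture there was 1 call with a fit on the 2 groups only, with no filter and with no trend. The shares of all genes were 37.3%, 30.5% and 42.2%. From culture to tumors there were 2 with median scaling, 4 with the fit on 2 groups and 1 with quantile normalization. The shares were 26.8%, 47.7% and 19.7%. In tumors against Vector there was 1 with the fit on 2 groups and with no trend, and 41.2% and 47.2% of all genes. Calls among pathway genes from culture to tumors went from 19 to 51 with median scaling, 87 with the fit on 2 groups and 9 with no trend, and probe sets from 2952 to 8049 with the fit on 2 groups. Leaving out 1 array gave 1 to 7, 0 to 4 and 1 to 9 calls among the 10 genes. In the comparisons with Vector, this count and the share of all genes called both depended on the array left out. Leaving out 1 array raised both if it was a Vector array and lowered both if not. Among pathway genes it gave 41 to 105, 1 to 88 and 47 to 110 (71, 19 and 77 with all arrays). Among probe sets it gave 4391 to 11503, 572 to 8097 and 5884 to 12434 (8522, 2952 and 9589 with all). The causes were not tested.

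Signs turned with median scaling for Canx (-0.23) and Sdf2l1 (-0.0085) in culture. From culture to tumors they turned for Calr (-0.20), Dnajb9 (-0.25) and Pdia3 (-3e-04), and in tumors against Vector for Hsp90b1 (-0.35), Hspa5 (-0.21), Pdia3 (-0.41), Sdf2l1 (-0.39) and Xbp1 (-0.20). The mean over probe sets turned Pdia3 to 0.077 in culture and -0.077 from culture to tumors. Leaving out 1 array gave ranges across 0 in culture for Canx (-0.13 to 0.32), Pdia3 (-0.26 to 0.10) and Hsp90b1 (-0.15 to 0.89). From culture to tumors it did so for Dnajb9 (-0.045 to 0.087), Sdf2l1 (-0.27 to 0.031) and Hspa5 (-0.085 to 0.028). In tumors against Vector it did so for Hsp90b1 (-0.27 to 0.77), Xbp1 (-0.18 to 0.96) and Sdf2l1 (-0.014 to 0.39).

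With the replicate number as a block the 10 genes had 2, 0 and 3 calls, pathway genes 69, 15 and 74 and probe sets 8130, 2390 and 9208. Of all genes tested, 44.1%, 15.6% and 49.3% were then called. The block ended the call of Canx in tumors against Vector (limma adjusted p = 0.0573) and no other call of the 10 genes. The dimmest Canx probe set was split between the Vector arrays, at 1233 and 356. The dimmer Pdia3 probe set had signals of 135 to 217, above the filter value of 61.6. The 2 arrays a group limit every comparison.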

Other observations

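Chaperone genes next to the 10, chosen after their values were seen, had no common direction. Dnajc3, which encodes the J-domain protein P58IPK, has the ER stress element in its promoter window. It was at 855 and 1046 on the Vector arrays, 1646 and 1554 in MUC1-CD culture and 1952 and 1941 in tumors. It rose by 0.75 ± 0.14 in culture (limma adjusted p = 0.00494) and was 1.03 ± 0.14 higher in tumors than in Vector cells (limma adjusted p = 0.00112). Creld2, whose window has the same element, went the other way. It was at 4434 and 3331 on the Vector arrays, 2349 and 1918 in MUC1-CD culture and 1696 and 1756 in tumors, and fell by 0.85 in culture (SE 0.17, limma adjusted p = 0.007). Hspa13, a microsomal HSP70 relative, rose by 0.62 ± 0.14 in culture (limma adjusted p = 0.0124). Dnajb11, a BiP partner with ER stress element II, rose by 0.56 ± 0.13 (limma adjusted p = 0.0141). Manf, a secreted ER stress protein, had a change of 0.13 ± 0.11 and was not called.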
